A study of Homo sapiens with 18 samples.

Results

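The 10 keratin genes KRT7, KRT8, KRT10, KRT15, KRT17, KRT18, KRT19, KRT80, KRT81 and KRT86 were followed across all 18 libraries of an RNA sequencing study of MDA-MB-231, a human cell line derived from triple-negative breast cancer. They were taken by gene symbol, and each of the 10 symbols matched 1 row of the 62830 genes listed. TRIM27 knockout cells (KO) and wild-type cells (WT) were each sequenced in 3 states, with 3 libraries per group. The states were transfection for 48 h with an siRNA against PARP1 (siPARP1, labelled 100 pM), exposure for 24 h to olaparib at 2 µM, and no treatment. Olaparib inhibits the enzymes PARP1 and PARP2, and TRIM27 is a tripartite motif protein that attaches ubiquitin to other proteins. All groups share the cell line, the culture medium and the batch label. Although the protocols mention DMSO and control siRNA, none of the 18 libraries carries such a label, so effects of transfection and vehicle cannot be told apart from those of the treatments. Nothing in the labels states whether the knockout line is 1 clone or a pool.

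Keratins build the intermediate filaments of epithelial cells. An acidic type I keratin pairs with a basic type II keratin, and the filaments link desmosomes and hemidesmosomes across the cell. KRT8 (type II) with KRT18 and KRT19 (type I) make up the network of simple epithelia such as the luminal layer of the breast, and KRT7 (type II) marks many ductal epithelia. KRT15 and KRT17 (type I) belong to basal cells of stratified epithelia, KRT17 also to wounded or stressed ones, and KRT10 (type I) to differentiating epidermis. KRT80 is a type II keratin of many epithelia, and KRT81 and KRT86 are type II hair keratins. The 5 type II members lie on chromosome 12 together with KRT18, and the other 4 type I members lie on chromosome 17.

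The libraries had the profile of a mesenchymal-like line that keeps simple-epithelial keratins. VIM, the intermediate filament of mesenchymal cells, measured 1564 to 2709.5 FPKM (fragments per kilobase of transcript and per fixed number of mapped fragments), whereas CDH1, the epithelial cadherin, was at most 0.0968 FPKM and EPCAM at most 0.310 FPKM. Of the other epithelial markers looked at, ESRP1 was at most 0.128 FPKM and CLDN4 at most 1.01, while CLDN7 ran from 0.924 to 4.42 FPKM. Of 10 markers of leukocytes, endothelium, fibroblasts and neurons, only TUBB3 reached 5 FPKM, at 14.6 to 56.7 FPKM, and CD3E was listed at 0 in every library. The 10 markers summed to 14.9 to 39.1 FPKM in KO and 32.3 to 52.9 in WT cells under siPARP1, 33.0 to 35.8 and 36.9 to 38.6 under olaparib, and 47.6 to 50.9 and 56.0 to 58.3 without treatment; their part in the results was not tested. TRIM27 RNA averaged 0.990 ± 0.0480 FPKM in KO and 1.95 ± 0.437 in WT cells under siPARP1, 0.629 ± 0.0657 and 1.39 ± 0.119 under olaparib, and 0.623 ± 0.0663 and 1.45 ± 0.243 without treatment (SD, n = 3 each). PARP1 RNA averaged 9.25 ± 0.472 FPKM in KO and 10.7 ± 0.883 FPKM in WT cells under siPARP1, and 55.2 ± 3.70 and 56.2 ± 2.57 FPKM without treatment. Under olaparib PARP1 RNA was also below the untreated means, at 40.1 ± 1.23 FPKM in KO and 38.8 ± 2.74 FPKM in WT cells. Relative depth, read from the steps between low values, ran from 0.749 to 1.24 times that of untreated WT library 1. Since nothing says that replicate libraries are from independent cultures, the p-values reflect no more than how these samples varied, and that variation may be technical. All tests below are limma fits of log2(FPKM + 1) over 15764 genes, with Benjamini-Hochberg adjusted p-values and a threshold of 0.05.

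KRT8, KRT18 and KRT19 dominated the keratin transcriptome. Over the 18 libraries the mean level was 905 FPKM for KRT8, 751 for KRT18 and 247 for KRT19, followed by KRT80 at 20.6, KRT15 at 10.1, KRT10 at 7.63, KRT7 at 2.14 and KRT81 at 1.72. KRT86 and KRT17 were close to the bottom of the scale, at 0.170 and 0.0875 FPKM. The order differed between groups. KRT18 exceeded KRT8 under siPARP1, with means of 498 against 293 FPKM in KO and 543 against 454 FPKM in WT cells and no overlap of libraries, and their libraries overlapped without treatment. KRT10 averaged 7.72 FPKM against 6.83 for KRT15 in KO cells under olaparib, and KRT7 and KRT81 overlapped in untreated KO cells. A filter of at least 1 FPKM in at least 3 libraries kept 8 members. KRT17 and KRT86 did not pass it in any library, KRT7 reached 1 FPKM in 16 libraries, KRT81 in 12, and the other 6 in all 18. KRT81 passed the filter only through its olaparib and untreated libraries, since all 6 siPARP1 libraries lay below 1 FPKM, so its lower level there is in part set by the filter.

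**Figure D1:**
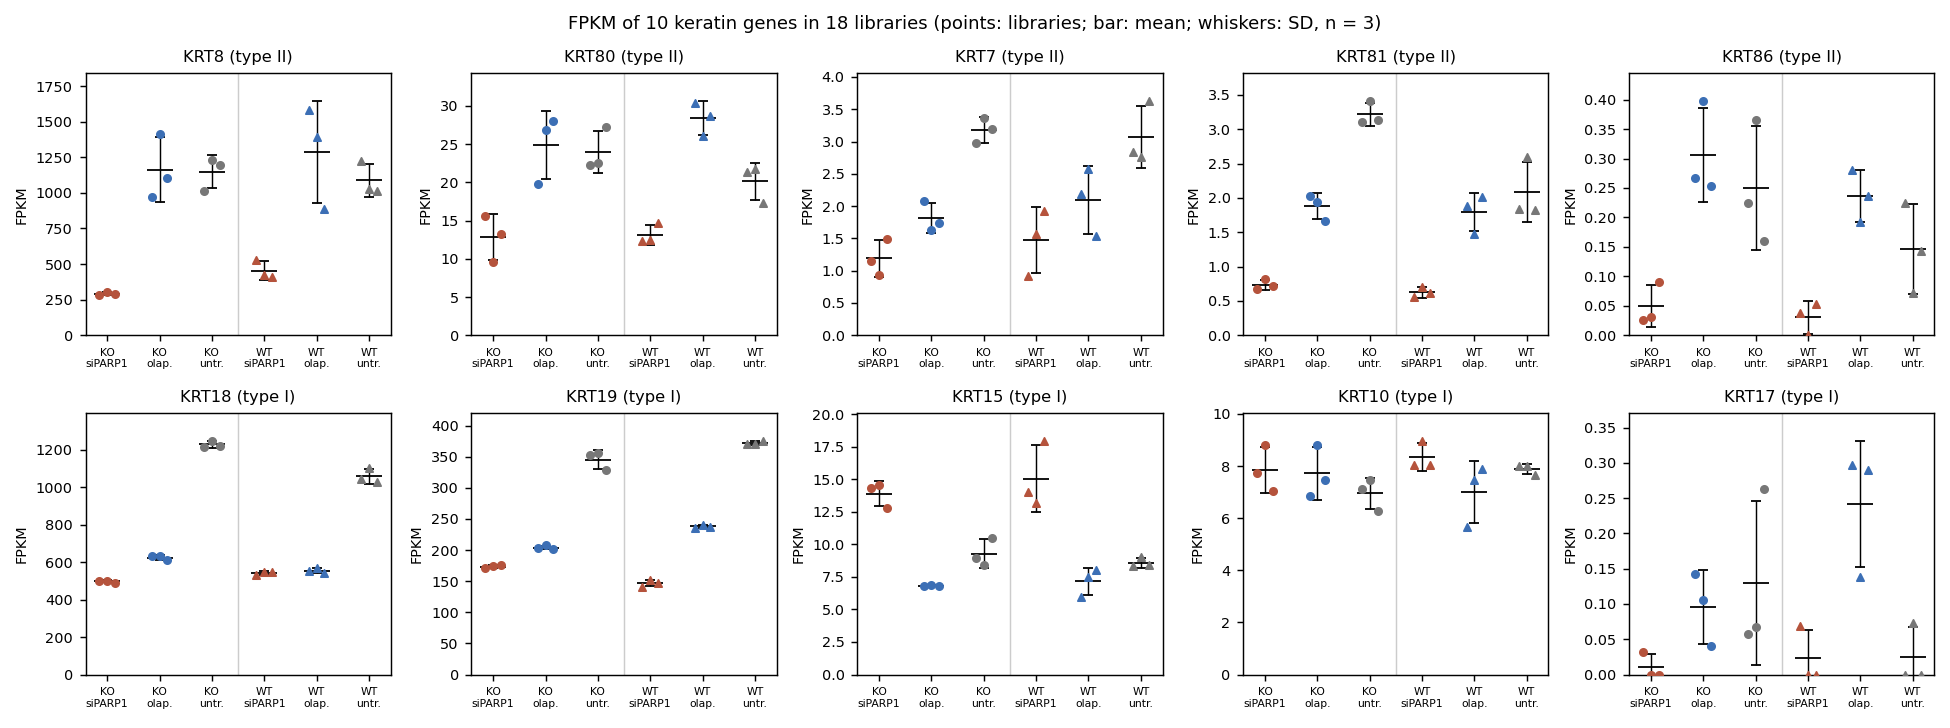
FPKM (linear axes from 0, own scale per panel) of the 10 keratin genes in the 6 groups, KO groups left of WT groups; circles are KO and triangles WT libraries, the bar is the mean and the whiskers the SD (n = 3). KRT18 and KRT19 lie in tight groups, with untreated libraries above both treatments, while KRT8 spreads widely under olaparib and KRT15 is highest under siPARP1.

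PARP1 knockdown went with lower levels of most keratins in both genotypes. Of the 8 members tested, 6 fell and 1, KRT15, rose in KO cells, where 54.7% of all genes tested passed in either direction, 22.8% as lower and 31.9% as higher. In WT cells the counts were also 6 lower and 1 higher, against 51.7% of all genes in either direction, 22.3% lower and 29.5% higher. Both the counts and the medians below include KRT81, whose lower level under siPARP1 is in part set by the filter. The median change over the 8 members was -0.96 in KO and -0.83 in WT cells, against 0.070 and 0.072 over all genes tested. Of all called genes, 58.4% were higher in KO and 57.0% in WT cells, and 43.0% in both after rescaling to the annotated genes; the 7 keratin calls in each genotype held their direction under that scaling. In bulk RNA, fewer cells with a transcript and less of it per cell cannot be told apart.

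KRT18 (ENSG00000111057, chromosome 12, 52948871 to 52952901, plus strand, GRCh38), the type I partner of KRT8, gave 500.4, 502 and 491 FPKM under siPARP1, 631, 631 and 609.9 FPKM under olaparib and 1217, 1249 and 1220.3 FPKM without treatment in KO cells. The WT libraries gave 532, 547 and 548 FPKM under siPARP1, 554, 567 and 542 FPKM under olaparib and 1043, 1103 and 1028 FPKM without treatment. No treated library of either genotype reached an untreated one. Under siPARP1 KRT18 fell to 40.5% of the untreated mean in KO cells, a log2 change of -1.30 (SE 0.037, adjusted p = 1.78e-12), and to 51.3% in WT cells, a log2 change of -0.96 (SE 0.037, adjusted p = 6.08e-11).

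KRT19 (ENSG00000171345, chromosome 17, 41523617 to 41528308, minus strand), a small type I keratin of simple epithelia, gave 170.4, 174 and 176 FPKM under siPARP1, 203, 207 and 202 FPKM under olaparib and 352, 356 and 328 FPKM without treatment in KO cells. WT cells gave 141, 152 and 147 FPKM under siPARP1, 236, 240.4 and 238 FPKM under olaparib and 370.4, 371 and 376 FPKM without treatment. The 3 states were fully separated in each genotype, with siPARP1 lowest. KRT19 fell under siPARP1 by a log2 change of -0.99 (SE 0.039, adjusted p = 4.64e-11) in KO cells and of -1.34 (SE 0.039, adjusted p = 3.07e-12) in WT cells.

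KRT8 (ENSG00000170421, chromosome 12, 52897187 to 52949954, minus strand) is the main type II keratin of the line. It gave 284, 303 and 292 FPKM under siPARP1, 970.2, 1416 and 1103 FPKM under olaparib and 1015, 1232 and 1197 FPKM without treatment in KO cells. In WT cells it gave 529.8, 423 and 409 FPKM under siPARP1, 1578, 1392 and 889.9 FPKM under olaparib and 1222, 1027 and 1013 FPKM without treatment. The siPARP1 libraries were all below the others, whereas the olaparib libraries spanned the untreated ones in both genotypes. The log2 change under siPARP1 was -1.96 (SE 0.19, adjusted p = 5.07e-07) in KO and -1.26 (SE 0.19, adjusted p = 4.89e-05) in WT cells.

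The less abundant type II members fell as well. KRT80 (ENSG00000167767, chromosome 12, 52168996 to 52192000, minus strand) gave 15.7, 9.64 and 13.3 FPKM under siPARP1 and 22.3, 22.5 and 27.2 FPKM without treatment in KO cells, and 12.4, 12.5 and 14.6 FPKM against 21.3, 21.7 and 17.3 FPKM in WT cells. Its log2 change was -0.87 (SE 0.16, adjusted p = 0.000306) in KO and -0.58 (SE 0.16, adjusted p = 0.00736) in WT cells, with no overlap of libraries. KRT7 (ENSG00000135480, chromosome 12, 52232520 to 52252186, plus strand) gave 1.14, 0.927 and 1.498 FPKM under siPARP1 and 2.97, 3.36 and 3.19 FPKM without treatment in KO cells, and 0.921, 1.57 and 1.92 against 2.84, 2.76 and 3.62 FPKM in WT cells. KRT7 fell by 0.94 on the log2 scale in KO (adjusted p = 0.000138) and by 0.74 in WT cells (adjusted p = 0.00119). A non-coding transcript held 52.4% of the mean KRT7 level. It averaged 0.172 FPKM with siPARP1 and 2.33 without in KO cells, and 0.592 against 2.06 in WT cells. The KRT7 coding transcript held 12.2% and gave 0.219, 0.419 and 0.349 FPKM against 0.214, 0 and 0.0290 in KO cells. In WT cells it gave 0.706, 0.0913 and 0.578 against 0.0155, 0.0798 and 0.462 FPKM. The KRT7 falls, here and under olaparib, are thus of the gene value and are not shown for coding RNA. The hair keratin KRT81 (ENSG00000205426, chromosome 12, 52285913 to 52291534, minus strand) gave 0.673, 0.817 and 0.721 FPKM under siPARP1 and 3.10, 3.41 and 3.14 FPKM without treatment in KO cells, and 0.553, 0.704 and 0.616 against 1.85, 2.59 and 1.82 FPKM in WT cells. KRT81 was lower by 1.28 in KO and by 0.92 in WT cells, on a scale that understates changes of genes this low. Because KRT81 passed the filter only through its olaparib and untreated libraries, this difference is given without a p-value.

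KRT15 went the other way. This basal-type keratin (ENSG00000171346, chromosome 17, 41513743 to 41522529, minus strand) gave 14.4, 14.5 and 12.8 FPKM under siPARP1 and 8.94, 8.41 and 10.5 FPKM without treatment in KO cells, and 14.03, 13.2 and 17.97 FPKM against 8.35, 9.01 and 8.41 FPKM in WT cells. Each siPARP1 library was above each untreated one, and KRT15 rose, with a log2 change of 0.54 (SE 0.11, adjusted p = 0.000915) in KO and 0.73 (SE 0.11, adjusted p = 7.15e-05) in WT cells. Of the 9 listed KRT15 transcripts, those typed as retained intron or nonsense-mediated decay held most of the gene's value. The full-length coding transcript KRT15-201 was listed at 0 in 11 of the 18 libraries. KRT10 (ENSG00000186395, chromosome 17, 40818117 to 40822595, minus strand), the epidermal type I keratin, did not pass in any comparison. Its 18 values lay between 5.65 and 8.98 FPKM, and its siPARP1 changes had confidence intervals (95%) of -0.084 to 0.39 in KO and -0.17 to 0.31 in WT cells.

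**Figure D2:**
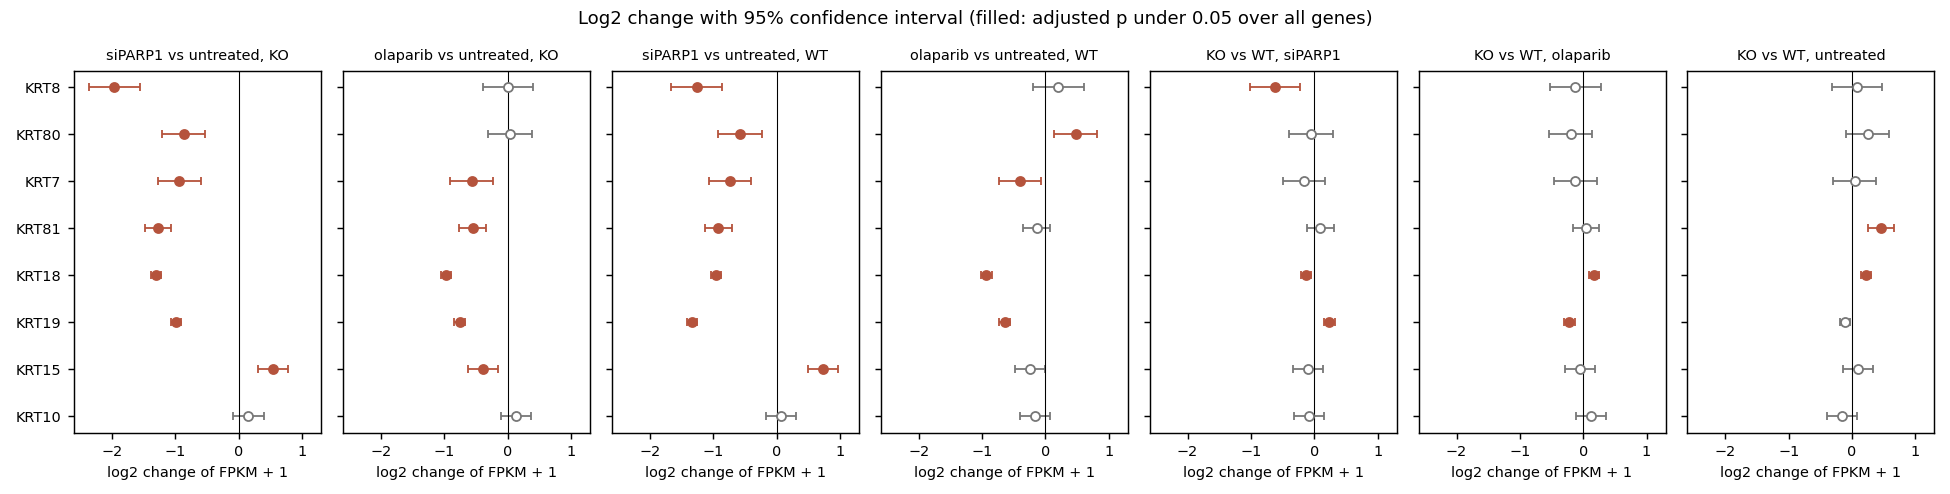
Log2 change of FPKM + 1 (x axis) for the 8 tested keratins (rows) in 7 comparisons (panels), with the 95% confidence interval of the fit; filled points passed an adjusted p of 0.05 over all genes. Under siPARP1 every tested member but KRT15 and KRT10 lies left of 0 in both genotypes, and KRT18 and KRT19 have the narrowest intervals among the abundant members. The KRT81 changes under siPARP1 are in part set by the filter.

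Under olaparib the type I keratins KRT18 and KRT19 fell in both genotypes. In KO cells 5 of the 8 tested members fell and none rose, where 47.2% of all genes passed in either direction, 22% as lower and 25.2% as higher. In WT cells 3 fell and 1, KRT80, rose, against 45.4% in either direction, 20.4% lower and 24.9% higher. KRT18 fell to 50.8% of the untreated mean in KO cells, a log2 change of -0.98 (SE 0.037, adjusted p = 4.71e-11), and to 52.4% in WT cells, a log2 change of -0.93 (SE 0.037, adjusted p = 9.13e-11). KRT19 fell to 59.1% in KO (log2 -0.76, adjusted p = 1.3e-09) and to 63.9% in WT cells (log2 -0.64, adjusted p = 7.72e-09). The siPARP1 and olaparib comparisons share their untreated libraries and differ in time, so their values are given side by side only.

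Among the lower members, KRT7 gave 2.08, 1.63 and 1.75 FPKM under olaparib in KO cells, all below the untreated libraries, and fell, with a log2 change of -0.57 (SE 0.16, adjusted p = 0.00793). KRT7 in WT cells read 2.18, 2.58 and 1.53 FPKM and fell, with a log2 change of -0.40 (SE 0.16, adjusted p = 0.0488), a call that ended under 10 alternatives, among them leaving out untreated library 1, 2 or 3 or olaparib library 1 or 3 of the WT cells, at adjusted p-values of up to 0.211. KRT15 gave 6.80, 6.87 and 6.82 FPKM in KO cells and fell by 0.39 (adjusted p = 0.0106), but not without untreated KO library 3 (adjusted p = 0.0548) or over its coding transcripts alone (log2 -0.063, adjusted p = 0.922). WT cells gave 5.97, 7.47 and 8.02 FPKM, and its log2 change of -0.24 did not pass (adjusted p = 0.0942), but did after rescaling to the annotated genes (-0.29, adjusted p = 0.0433). KRT81 gave 2.03, 1.94 and 1.67 FPKM in KO cells and fell by 0.55 (adjusted p = 0.000295), whereas its 1.89, 1.48 and 2.01 FPKM in WT cells overlapped the untreated libraries (log2 -0.14, adjusted p = 0.263).

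KRT80 was the only tested member called higher under olaparib, in WT cells. It gave 30.4, 26.0 and 28.7 FPKM in treated and 21.3, 21.7 and 17.3 FPKM in untreated WT cells, a log2 change of 0.48 (SE 0.16, adjusted p = 0.0234). The call ended without untreated WT library 3, olaparib WT library 1 or olaparib WT library 3, at adjusted p-values of 0.0989, 0.0761 and 0.0577, and over coding transcripts alone (adjusted p = 0.327). In KO cells KRT80 gave 19.8, 26.9 and 28.0 FPKM with olaparib and 22.3, 22.5 and 27.2 FPKM without, a log2 change of 0.039 with an interval of -0.30 to 0.38. The difference between the genotypes was itself -0.44 and did not pass (adjusted p = 0.363).

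The gene value of KRT8 under olaparib joined transcripts that differed from each other. Gene values averaged 1163 ± 229 FPKM with olaparib and 1148 ± 116 FPKM without in KO cells, and 1287 ± 356 against 1088 ± 117 FPKM in WT cells, and neither change passed (0.0056, adjusted p = 0.985, and 0.21, adjusted p = 0.392). Without olaparib WT library 3 the WT change was 0.45 and passed (adjusted p = 0.0307). The transcript table, which gives an FPKM for each of the 17 annotated KRT8 transcripts, placed 47.3% of the mean KRT8 level in 1 coding transcript and 39.3% in 1 non-coding transcript. These transcripts were looked at after the spread of the gene value had been seen. The first, ENST00000552150, called the main KRT8 coding transcript here, has 9 exons and 1687 bases. The second, ENST00000549176, is typed as retained intron and has 4 exons and 770 bases.

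The main KRT8 coding transcript varied little between libraries beside the gene value. It gave 507, 387 and 474 FPKM under olaparib and 622, 612 and 571 FPKM without treatment in KO cells, and 482, 423 and 416 against 644, 646 and 634 FPKM in WT cells. All olaparib libraries lay below all untreated libraries of their genotype. In a limma fit over 44746 transcripts it fell, with a log2 change of -0.41 (SE 0.084, adjusted p = 0.00455) in KO cells, where 12.6% of transcripts passed, and of -0.55 (SE 0.084, adjusted p = 0.000546) in WT cells, where 11.4% passed. Under siPARP1 it gave 181, 185 and 187 FPKM in KO and 229, 259 and 256 FPKM in WT cells, with log2 changes of -1.70 (SE 0.084, adjusted p = 5.19e-09) and -1.37 (SE 0.084, adjusted p = 6.41e-08); 18.9% and 15.7% of transcripts passed.

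The KRT8 retained-intron transcript varied far more. It gave 343, 903 and 499 FPKM under olaparib and 228, 452 and 454 FPKM without treatment in KO cells, and 986, 830.0 and 312 against 424, 211.4 and 207 FPKM in WT cells. In these 4 groups the libraries of 1 group lay further apart than the treated and untreated means of the main KRT8 coding transcript did, and treated and untreated libraries overlapped. The log2 change of the KRT8 retained-intron transcript under olaparib was 0.57 (SE 0.53, adjusted p = 0.580) in KO and 1.26 (SE 0.53, adjusted p = 0.170) in WT cells, and neither passed. Under siPARP1 it gave 43.3, 66.6 and 51.4 FPKM in KO and 229.6, 86.5 and 70.3 FPKM in WT cells, with log2 changes of -2.74 (SE 0.53, adjusted p = 0.00222) and -1.24 (SE 0.53, adjusted p = 0.148). The fall passed in KO cells. With the KRT8 retained-intron transcript subtracted, KRT8 averaged 582 ± 60.4 FPKM under olaparib and 770.3 ± 23.6 without treatment in KO cells, and 577 ± 15.5 against 806 ± 8.89 in WT cells. Summing only the coding transcripts of each gene gave KRT8 a log2 change of -0.42 (adjusted p = 0.0013) in KO and -0.50 (adjusted p = 0.000337) in WT cells.

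The KRT8 transcripts overlap over most of the shorter one. Of the 696 distinct 75-base windows of the KRT8 retained-intron transcript, 566 (81.3%) also occur in the main KRT8 coding transcript. Fragments inside the shared windows match both transcripts, and no source used here says how the authors' tool divided them.

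The KRT8 pseudogenes, which are copies of KRT8 elsewhere in the genome, are listed with values of their own. The 51 listed KRT8 pseudogenes summed to 22.0 ± 0.319 FPKM under siPARP1, 56.9 ± 6.05 under olaparib and 68.2 ± 2.13 without treatment in KO cells. In WT cells the sums were 30.02 ± 2.03, 55.4 ± 2.65 and 75.2 ± 1.296 FPKM in the same order. Their order was that of the main KRT8 coding transcript and not that of the KRT8 gene value. The 67 KRT18 pseudogenes summed to 17.7 ± 0.870, 22.8 ± 0.447 and 47.2 ± 2.15 FPKM in KO cells, and to 20.6 ± 1.07, 20.3 ± 0.820 and 41.7 ± 0.937 FPKM in WT cells. Of 13 keratin pseudogenes that passed the filter, 12 fell under siPARP1 in each genotype, and 10 in KO and 11 in WT cells fell under olaparib. Of all genes, 22.8% in KO and 22.3% in WT cells fell under siPARP1, and 22% and 20.4% under olaparib. Some pseudogenes passed the filter mainly through their untreated libraries, so their falls are in part set by it. KRT18P48, for example, read 1.83 to 2.09 FPKM untreated and mostly below 1 FPKM treated. The counts are also not independent of the KRT8 and KRT18 values. Reads of a gene and its copies may have been divided between them, so these levels are uncertain. Of the 75-base windows of KRT8, 9.49% occur in another gene, with 5.02% in KRT18 and 2.58% in KRT8P3, the pseudogene sharing most. Of those of KRT18, 13.3% occur in another gene, with 10.8% in KRT8 and 0.729% in KRT18P11, the pseudogene sharing most. Most of this sharing is thus between KRT8 and KRT18, whose reads may also have been divided.

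**Figure D3:**
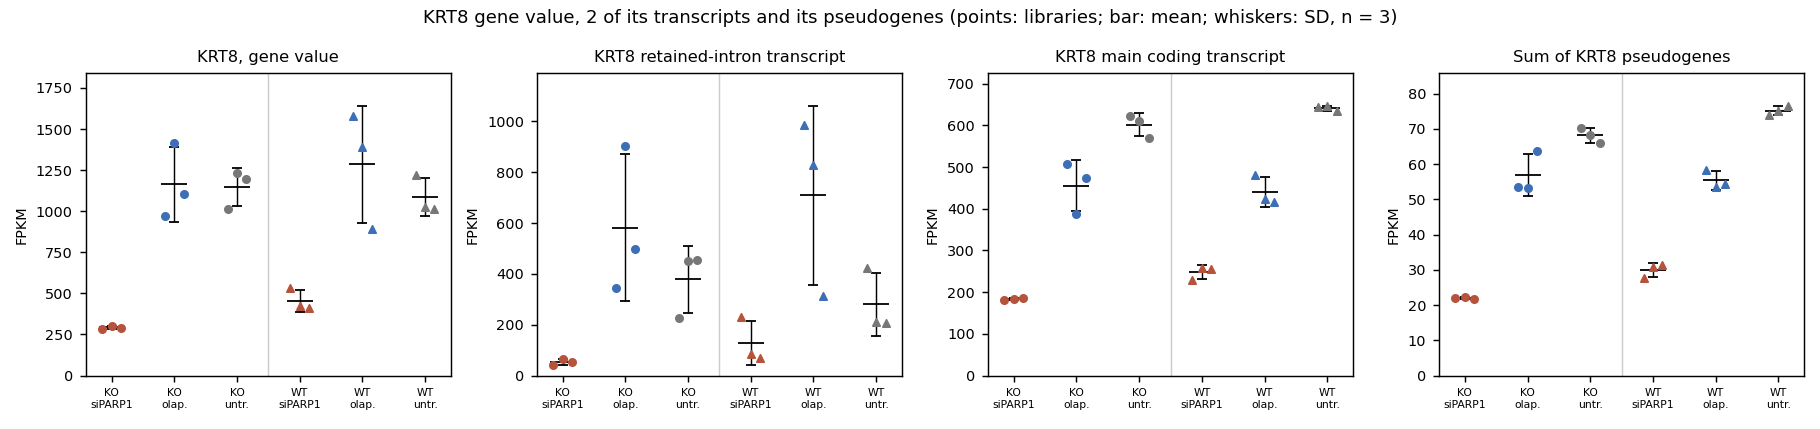
FPKM (linear axes from 0) of the KRT8 gene, of the KRT8 retained-intron transcript and the main KRT8 coding transcript and of the summed KRT8 pseudogenes in the 6 groups, KO left of WT; points are libraries, bars means and whiskers SD (n = 3). The KRT8 retained-intron transcript runs from 43.3 to 986 FPKM with wide spread, whereas the main KRT8 coding transcript and the pseudogene sum are tight and lie lower under both treatments than without treatment.

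Between the genotypes KRT18 and KRT81 differed without treatment, at a share of members close to that of all genes. There 2 of the 8 tested members, KRT18 and KRT81, were higher in KO cells and none was lower, where 20.5% of all genes passed in either direction, 9.58% as higher and 10.9% as lower. KRT18 averaged 1229 ± 17.5 FPKM in KO and 1058 ± 39.7 FPKM in WT cells (SD, n = 3 each), a log2 change of 0.22 (SE 0.037, adjusted p = 0.000770). KRT81 averaged 3.22 ± 0.166 and 2.09 ± 0.439 FPKM, a log2 change of 0.46 (SE 0.097, adjusted p = 0.00365), with all KO libraries above all WT libraries. KRT19 averaged 346 ± 14.9 FPKM in KO and 372 ± 3.06 FPKM in WT cells without overlap, and its change of -0.11 did not pass (adjusted p = 0.0637), but did with transcript sums (adjusted p = 0.0379). KRT8 differed by 0.078 with an interval of -0.32 to 0.48, and the main KRT8 coding transcript by -0.093 (SE 0.084, adjusted p = 0.747), where 2.5% of transcripts passed.

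Under olaparib 2 members passed between the genotypes, 1 in each direction, where 12.8% of all genes passed, 5.68% as higher and 7.16% as lower. KRT18 was higher in KO cells (624 ± 12.1 FPKM in KO and 554 ± 12.7 FPKM in WT cells, log2 0.17 (SE 0.037, adjusted p = 0.00692)). A fit of those 2 groups alone put its adjusted p at 0.0508. KRT19 was lower in KO cells (204 ± 2.89 and 238 ± 2.35 FPKM, log2 -0.22 (SE 0.039, adjusted p = 0.00154)). For both genes the 3 KO libraries lay apart from the 3 WT libraries.

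Under siPARP1 the directions of KRT18 and KRT19 were opposite to those under olaparib. Of the 8 tested members KRT19 was higher in KO cells, and KRT8 and KRT18 were lower, where 23.1% of all genes passed, 11.8% as higher and 11.2% as lower. KRT19 averaged 174 ± 2.95 FPKM in KO and 147 ± 5.51 FPKM in WT cells, a log2 change of 0.24 (SE 0.039, adjusted p = 0.000491). KRT18 averaged 498 ± 5.99 and 543 ± 9.10 FPKM, a log2 change of -0.12 (SE 0.037, adjusted p = 0.0258), and KRT8 averaged 293 ± 9.62 and 454 ± 66.0 FPKM, a log2 change of -0.62 (SE 0.19, adjusted p = 0.0254). The main KRT8 coding transcript was also lower in KO cells, with a log2 change of -0.43 (SE 0.084, adjusted p = 0.0128), where 2.88% of transcripts passed. The KRT8 call ended without KO library 1 or 3 or WT library 1 (adjusted p = 0.0681, 0.0613 and 0.104), and the KRT18 call without KO library 1 or 3 or WT library 2 or 3 (0.0514, 0.0779, 0.0762 and 0.0773) or in a fit of the 2 groups alone (0.135). Both ended with no filter (0.0505 and 0.0697) and with the median of the surrounding 10 Mb removed (log2 -0.49, adjusted p = 0.092, for KRT8 and 0.0042, adjusted p = 0.978, for KRT18). The 155 tested genes of that 10 Mb bin of chromosome 12 had a median change of -0.13 in this comparison, close to the change of KRT18, and its part in the result was not tested.

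KRT18 and KRT19 responded to PARP1 knockdown by different amounts in the 2 genotypes. The interaction of siPARP1 with genotype passed for 2 of the 8 tested members, where 5.26% of all genes passed. KRT18 fell to 40.5% of its untreated mean in KO cells and to 51.3% in WT cells, a difference between the changes of -0.34 (SE 0.053, adjusted p = 0.00149). KRT19 fell to 50.2% in KO and 39.5% in WT cells, a difference of 0.35 (SE 0.055, adjusted p = 0.00190), in the opposite direction. Leaving out any 1 of the libraries kept the KRT18 difference between -0.37 and -0.32 and the KRT19 difference between 0.31 and 0.37, with adjusted p-values of at most 0.00577 and 0.00651. Among single transcripts, where 0.42% passed this interaction, neither KRT18-201 (log2 -0.20, adjusted p = 0.412) nor KRT19-201 (log2 0.37, adjusted p = 0.0759) did. The KRT18 transcript with the largest difference, the coding KRT18-207, averaged 106 ± 20.6 FPKM under siPARP1 and 233 ± 25.5 without treatment in KO cells, and 131 ± 7.45 and 137 ± 20.7 FPKM in WT cells, a difference of -1.08 that did not pass (adjusted p = 0.0893). For KRT8 the difference was -0.70 with an interval of -1.26 to -0.14 (adjusted p = 0.154), which passed in a fit of only the groups compared (adjusted p = 0.0474). For KRT81 the difference was -0.36. It is given without a p-value, because KRT81 passed the filter only through its olaparib and untreated libraries.

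For olaparib no tested member passed the limma interaction with genotype, where 3.06% of all genes passed. KRT81 alone passed 0.05 before adjustment, with a difference of -0.41 (adjusted p = 0.135). Without untreated WT library 2, the highest of its group for KRT81, the difference was -0.53 and passed (adjusted p = 0.0348). The intervals of KRT18 (-0.16 to 0.066) and KRT19 (-0.23 to 0.0071) were narrow, and that of KRT8 (-0.76 to 0.36) was wide.

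The balance within the simple-epithelial keratins differed between states. The ratio of the main KRT8 coding transcript to KRT18 within a library was 0.363, 0.368 and 0.380 under siPARP1, 0.804, 0.613 and 0.777 under olaparib and 0.511, 0.490 and 0.468 without treatment in KO cells. In WT cells it was 0.431, 0.473 and 0.468 under siPARP1, 0.869, 0.746 and 0.768 under olaparib and 0.618, 0.586 and 0.617 without treatment. The ratio was thus lowest under siPARP1 and highest under olaparib in each genotype, with no overlap of libraries. It sets 1 part of KRT8 against the whole of KRT18. With the KRT8 gene value in its place, the means kept that order and the KO libraries did not overlap. WT siPARP1 library 1, at 0.996, then lay among the untreated WT libraries, at 1.17, 0.932 and 0.985. The ratio of KRT19 to KRT18 was 0.341, 0.347 and 0.359 under siPARP1, 0.322, 0.329 and 0.331 under olaparib and 0.289, 0.285 and 0.269 without treatment in KO cells. In WT cells it was 0.266, 0.278 and 0.269 under siPARP1, 0.425, 0.424 and 0.439 under olaparib and 0.355, 0.337 and 0.366 without treatment. The KO siPARP1 libraries were above, and the WT siPARP1 libraries below, the untreated libraries of their genotype. A ratio within a library shows unequal change and does not show which of the genes changed. The 10 members together held 0.210% of the FPKM of annotated genes under siPARP1, 0.448% under olaparib and 0.647% without treatment in KO cells, and 0.248%, 0.468% and 0.587% in WT cells.

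**Figure D4:**
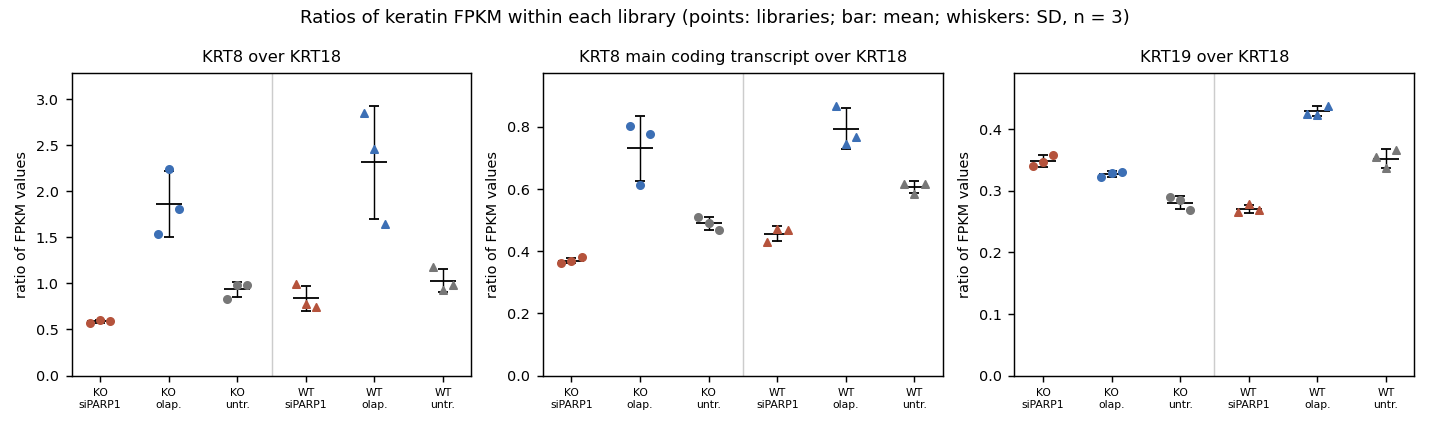
Ratios of FPKM within each library (linear axes from 0) for KRT8 over KRT18, the main KRT8 coding transcript over KRT18 and KRT19 over KRT18 in the 6 groups, KO left of WT; points are libraries, bars means and whiskers SD (n = 3). The main KRT8 coding transcript ratio is highest under olaparib and lowest under siPARP1 in both genotypes, and the KRT19 ratio under siPARP1 lies above the untreated libraries in KO and below them in WT cells.

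The basal keratin KRT17 and the hair keratin KRT86 were barely detected. KRT17 (ENSG00000128422, chromosome 17, 41619441 to 41624842, minus strand) gave 0.0325, 0 and 0 FPKM under siPARP1, 0.143, 0.106 and 0.0398 FPKM under olaparib and 0.0569, 0.0674 and 0.263 FPKM without treatment in KO cells. In WT cells it gave 0.0686, 0 and 0 FPKM under siPARP1, 0.297, 0.138 and 0.290 FPKM under olaparib and 0, 0.0735 and 0 FPKM without treatment. A fit without the filter over 34548 genes called it higher under olaparib in WT cells (log2 0.28, adjusted p = 0.00711), with every library below 0.3 FPKM. KRT86 (ENSG00000170442, chromosome 12, 52249300 to 52309163, plus strand) gave 0.0262, 0.0314 and 0.0898 FPKM under siPARP1, 0.267, 0.397 and 0.253 FPKM under olaparib and 0.225, 0.365 and 0.160 FPKM without treatment in KO cells. The WT libraries gave 0.0372, 0 and 0.0533 FPKM under siPARP1, 0.280, 0.191 and 0.236 FPKM under olaparib and 0.224, 0.0723 and 0.143 FPKM without treatment. Its lower values under siPARP1 passed in that fit in KO cells (log2 -0.25, adjusted p = 0.00679).

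KRT81 and KRT86 are similar in sequence and overlap, so their values are uncertain. KRT81 lies within the annotated span of KRT86 on the other strand, and no source used here states the strand setting of the counting. The coding sequences of KRT81-201 and KRT86-201 were identical at 93.6% of 1454 aligned bases, and 35.9% of the 75-base windows of KRT81 occur in another gene. Other overlaps include KRT8 and KRT18, whose outermost annotated transcripts cross on opposite strands, KRT10 with TMEM99, KRT7 with KRT7-AS, KRT86 and KRT87P, KRT80 with LINC00592, KRT15 with MIR6510, and KRT86 with KRT87P and further non-coding genes. Of these partners TMEM99 averaged 8.91 FPKM, against 7.63 for KRT10, whereas KRT7-AS and LINC00592 were below 0.2 FPKM. The spans of KRT10 and TMEM99 overlap, but no 75-base window of the annotated KRT10 transcripts occurs in TMEM99 on either strand. Reads outside the annotated exons cannot be told apart there without a known strand setting. KRT10, KRT19 and KRT80 shared no 75-base window with another gene.

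Genes that work with keratins were counted from lists by role. For reference, under siPARP1 22.8% of all genes fell and 31.9% rose in KO cells, and 22.3% fell and 29.5% rose in WT cells. Under olaparib in WT cells 20.4% fell and 24.9% rose, and between untreated genotypes 10.9% were lower and 9.58% higher in KO cells. Of 15 other intermediate filament genes 6 were tested, and all 6 fell under siPARP1 in each genotype, with a median change of -0.52 in KO and -0.57 in WT cells. LMNB2, a nuclear lamin, averaged 28.5 ± 0.370 FPKM with siPARP1 and 48.0 ± 0.769 FPKM without in WT cells (log2 -0.73, adjusted p = 1.42e-09), and INA, a neuronal filament, 9.65 ± 0.554 FPKM and 15.4 ± 0.0631 FPKM (log2 -0.62, adjusted p = 2.19e-08). Under olaparib 2 rose and 3 fell in WT cells. INA rose there, to 26.97 ± 0.212 FPKM (log2 0.77, adjusted p = 3.63e-09), and the lamin LMNB1 fell, to 16.8 ± 1.46 FPKM against 67.9 ± 15.2 FPKM without treatment (log2 -1.93, adjusted p = 1.24e-07). Between untreated genotypes 3 of the 6 were lower in KO cells, among them INA (log2 -0.23) and VIM (log2 -0.16).

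Of 22 genes for desmosome and hemidesmosome parts that anchor keratin filaments, 15 were tested. Under siPARP1 2 rose and 8 fell in KO cells, and 1 rose and 10 fell in WT cells, with medians of -0.22 and -0.36, where 54.7% and 51.7% of all genes passed. ITGB4, the hemidesmosome integrin, averaged 5.56 ± 0.382 FPKM with siPARP1 and 23.2 ± 0.615 FPKM without in WT cells (log2 -1.88, adjusted p = 9.31e-10), its partner ITGA6 57.4 ± 14.4 FPKM and 131 ± 1.10 FPKM (log2 -1.20, adjusted p = 4.57e-06). JUP, plakoglobin, was the 1 that rose there (log2 0.26, adjusted p = 0.0103). Under olaparib 4 rose and 4 fell in WT cells, where 45.4% of all genes passed, with PPL, periplakin, higher (log2 0.71) and DSG2, a desmosomal cadherin, lower (log2 -0.59). Between untreated genotypes 4 were higher and 4 lower in KO cells, where 20.5% of all genes passed. JUP (log2 0.51) and the linker PLEC (log2 0.51) were higher, and DSG2 (log2 -0.43) and PKP4 (log2 -0.40) lower.

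Of 14 kinases, chaperones and other regulators of keratins, all tested, 3 rose and 5 fell under siPARP1 in KO cells and 2 rose and 5 fell in WT cells, shares close to the 54.7% and 51.7% of all genes. TGM2, a transglutaminase, averaged 176 ± 2.76 FPKM with siPARP1 and 489.6 ± 6.26 FPKM without in WT cells (log2 -1.47, adjusted p = 1.44e-13), and PNN, pinin, rose by 0.41. Under olaparib in WT cells 2 rose, among them the small heat shock protein HSPB1 (log2 0.51), and 5 fell, among them PRKCE (log2 -0.39), where 45.4% of all genes passed. Between untreated genotypes 3 were higher and 1 lower in KO cells, where 20.5% of all genes passed. SFN, the 14-3-3 sigma protein, was higher by 0.31 (adjusted p = 3.28e-05) and EPS8 lower (log2 -0.37).

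Of 20 epithelial transcription factors 10 were tested. Between untreated genotypes 5 were higher and 3 lower in KO cells, where 20.5% of all genes passed. ELF3 averaged 6.53 ± 0.794 FPKM in KO and 2.40 ± 0.434 FPKM in WT cells (log2 1.15, adjusted p = 1.74e-05), KLF5 6.93 ± 0.151 FPKM and 3.23 ± 0.265 FPKM (log2 0.91, adjusted p = 0.00549), and SOX9 was lower (log2 -0.35). Under olaparib in WT cells 5 rose, led by TFAP2A (log2 0.81) and KLF4 (log2 0.73), and 1 fell, where 45.4% of all genes passed. Under siPARP1 in WT cells 2 rose, among them CEBPB (log2 0.53), and 3 fell, where 51.7% passed. Of 24 epithelial adhesion markers 11 were tested, and 2 rose and 3 fell under siPARP1 in WT cells, 3 rose and 2 fell under olaparib, and 3 were higher and 2 lower in untreated KO against WT cells, where 51.7%, 45.4% and 20.5% of all genes passed. CLDN1, a tight junction claudin, rose by 1.53 with siPARP1, to 24.2 ± 0.425 FPKM against 7.72 ± 0.353 FPKM in untreated WT cells, and CD24, a surface glycoprotein, rose by 1.74 with olaparib, to 8.93 ± 0.386 FPKM against 1.99 ± 0.425 FPKM without.

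The genes most like each abundant keratin across the 18 libraries were sought among 8823 tested genes averaging 5 FPKM or more, by Pearson's r of log2(FPKM + 1). The libraries fall into 6 groups, so the points share their group as well as their library, and r is given as a description. For KRT18 they were KRT18P17 (r = 0.990), NCAPG (r = 0.989) and SCD (r = 0.986), and for KRT19 SH3BGRL (r = 0.982), TBL1X (r = 0.978) and ELF4 (r = 0.975). For KRT8 they were VDAC2P5 (r = 0.975), SH3BGRL3 (r = 0.960) and SOX12 (r = 0.959), for KRT80 PFKP (r = 0.934), ME3 (r = 0.926) and NFE4 (r = 0.924) and for KRT15 RPS13 (r = 0.960), SLC35G1 (r = 0.953) and RNF113A (r = 0.949). Among the 28 pairs of tested members the highest r was 0.899, for KRT18 and KRT19, followed by 0.874 for KRT7 and KRT19, and the lowest was -0.878, for KRT8 and KRT15.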

How the data were processed

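RNA of MDA-MB-231 cells was extracted with TRIzol and enriched with oligo(dT), per the labels' protocols, and 18 libraries were sequenced. The deposited tables give FPKM values per gene and per transcript, made by the authors. The build was GRCh38, per the submitters' processing notes, which list HISAT2 2.2.1, fastp 0.23.2, StringTie 2.2.1, featureCounts 2.0.3 and DESeq2 1.38.3 without their roles. The tool behind the FPKM values, the annotation release and the strand setting are not given in the sources used here. No counts were used, so depth is known only as a relative value.

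All 18 libraries entered 1 limma fit (version 3.58.1, R 4.3.3) of log2(FPKM + 1), from which 9 contrasts were drawn. Genes needed at least 1 FPKM in at least 3 libraries, which kept 15764 of 62830, and p-values were adjusted over all of them. A fold change on this scale understates the change of low genes. Unnamed loci held 43.4% to 49.8% of a library's FPKM. Positions and transcripts are from GENCODE 29 (GRCh38). Sequences of the transcripts are not reported here. The script for the fit was tested on simulated data.

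The members and lists were chosen with earlier results of these data known. All 10 members are named. From each list of related genes, up to 4 were named per comparison by the largest called rises and falls among genes averaging 5 FPKM or more in the higher group. The 3 most alike genes were named for members averaging 10 FPKM or more. Alternatives were another pseudocount, no filter, other scalings, the replicate block, a fit of only the groups compared, leaving out each library, sums over transcripts, and 10 Mb bin medians removed.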

Additional observations from a re-analysis of the deposited data

Results flagged for a closer look

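The change of KRT18 with siPARP1 differed between the genotypes, by a test of the difference itself: it was -0.34 (KO change minus WT change, log2, limma adjusted p = 0.00149), with KRT18 at 40.5% of its untreated mean in KO and 51.3% in WT cells. The change of KRT19 with siPARP1 also differed, in the other direction, by 0.35 (adjusted p = 0.0019), with KRT19 at 50.2% in KO and 39.5% in WT cells.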

How the results depend on the processing

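Over 1119 values of the members under alternatives, 1056 kept direction and side of the threshold, 28 lost the call and 6 gained it with the same sign, and 29 changed sign. Of those 29, KRT18 between KO and WT under siPARP1 also lost its call with 10 Mb bin medians removed, and KRT8 under olaparib gained one over coding transcripts in both genotypes. The values are FPKM, so depth could not be weighed gene by gene. The replicate numbers did not pair the libraries: deviations of same-numbered libraries correlated between -0.071 and 0.087, and the replicate block ended only the KRT7 call for olaparib in WT cells (adjusted p = 0.0621). The cause of the changes below was not tested.

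Members called between KO and WT under siPARP1 numbered 3, but 1 with no filter, 1 with 10 Mb bin medians removed, and 1 to 3 without single libraries. Under olaparib the 2 became 1 in a fit of only the groups compared. Leaving out libraries gave 2 to 4 for olaparib in WT cells, 4 to 5 in KO cells, 0 to 1 for the olaparib interaction and 2 to 3 for the siPARP1 interaction. The member gained in the siPARP1 interaction was KRT81, whose siPARP1 level is in part set by the filter.

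Signs changed as follows, in log2. With median-of-ratios scaling, KRT8 under olaparib in KO cells was -0.020 and KRT10 under siPARP1 in WT cells -0.0011. Rescaled to the annotated genes, KRT80 under olaparib in KO cells was -0.041, KRT8 there -0.078, and KRT10 under siPARP1 in WT cells -0.043. With bin medians removed, KO against WT under siPARP1 was 0.0042 for KRT18 and 0.077 for KRT80. Over coding transcripts, KO against WT without treatment was -0.061 for KRT8 and -0.61 for KRT15, and under olaparib 0.021 for KRT8. The olaparib change of KRT8 was then -0.42 in KO and -0.50 in WT cells, its olaparib interaction 0.082, and the interactions of KRT15 0.48 with olaparib and 0.15 with siPARP1. Without single libraries, KO against WT spanned -0.013 to 0.14 for KRT7 without treatment. Under olaparib it spanned -0.37 to 0.046 for KRT8, -0.16 to 0.027 for KRT15, -0.0018 to 0.21 for KRT10 and -0.037 to 0.10 for KRT81. Under siPARP1 it spanned -0.20 to 0.13 for KRT80 and -0.18 to 0.028 for KRT15. The olaparib change in KO cells spanned -0.050 to 0.19 for KRT80 and -0.15 to 0.13 for KRT8.

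Counts over all genes moved by over 1.5 times in a fit of only the groups compared (KO against WT, 2144 against 3227 without treatment and 2213 against 3634 under siPARP1, and 500 against 829 for the siPARP1 interaction). They also moved with bin medians removed (1248 against 2023, KO against WT under olaparib) and without untreated WT library 1 (313 against 482, olaparib interaction). Over coding transcripts, fewer genes were tested, and counts were 2332 against 3634 for KO against WT under siPARP1, 4578 against 7443 and 4265 against 7151 for olaparib in KO and WT cells, and 5341 against 8622 and 5111 against 8157 for siPARP1. Rescaling to the annotated genes moved the median of all genes under siPARP1 to -0.05 in KO and -0.03 in WT cells, against 0.07 in both, and the share of calls that were higher to 43.0% in both, against 58.4% in KO and 57.0% in WT cells. For olaparib in KO cells that share was 43.2% against 53.4%.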

Other observations

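KRT34, a type I hair keratin, was looked at after its values had been seen. It was the 1 other keratin gene of 44 that passed the filter; 21 of the others were listed at 0 in every library and the other 22 stayed at or below 0.669 FPKM. KRT34 averaged 3.50 ± 0.420 FPKM under siPARP1, 0.442 ± 0.0082 under olaparib and 2.17 ± 0.148 without treatment in KO cells, and 4.90 ± 0.936, 0.631 ± 0.159 and 2.86 ± 0.277 FPKM in WT cells (SD, n = 3). All 6 olaparib libraries lay below 1 FPKM, so KRT34 passed the filter only through its siPARP1 and untreated libraries, and its lower level under olaparib is in part set by the filter and the choice. It rose under siPARP1 (log2 0.50 in KO, adjusted p = 0.001, and 0.60 in WT cells, adjusted p = 0.000247), by limma, and its log2 difference between olaparib and no treatment was -1.14 in KO and -1.25 in WT cells. The p-values do not allow for the choice of KRT34 after its values had been seen. Of the 10 followed keratins, KRT15 was likewise higher under siPARP1 in both genotypes.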
